A study of Homo sapiens with 6 samples.

Results

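The 8 genes described here encode the inhibitors of the cyclin-dependent kinases (CDKs), the enzymes that drive the cell cycle: CDKN1A (p21), CDKN1B (p27) and CDKN1C (p57) of the CIP/KIP family, CDKN2A (p16 and ARF), CDKN2B (p15), CDKN2C (p18) and CDKN2D (p19) of the INK4 family, and the phosphatase gene CDKN3. They were chosen by symbol, with no use of their values, and all 8 are among the 39323 genes of the count table. Poly(A) RNA was sequenced from MDA-MB-231, a line of human breast cancer that lacks hormone receptors and looks mesenchymal. Cells received either an siRNA duplex against SF3B6 (siSF3B6), a protein of the SF3b complex that contacts the branch point during splicing, or a non-targeting duplex (siNC). Each group had 3 libraries. Both groups were transfected with the same lipid reagent, and each rests on a single duplex, so loss of SF3B6 and other effects of that duplex cannot be told apart. Replicates are stated to be biological, with no word on separate cultures, so each p-value measures the spread between these libraries.

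INK4 proteins bind CDK4 and CDK6 and keep them from pairing with D-type cyclins, whereas CIP/KIP proteins bind assembled cyclin-CDK complexes, mainly those of CDK2. Both families thereby keep RB unphosphorylated and E2F factors silent. Much of their control is known to lie after transcription: p27 is marked for destruction by the ubiquitin ligase that contains SKP2, so an mRNA level does not give the protein level. CDKN3 differs in mechanism, since it removes the activating phosphate of CDK2 and CDK1, and it is itself expressed with mitotic genes.

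Upstream sequence is shown for 4 of the genes, CDKN2D, CDKN1A and CDKN1B because they are called members with a single start, and CDKN3 because it holds the only match to a mitotic gene element. Stretches that annotated exons cover are left out, except for CDKN1B, where exons cover nearly all of the upstream bases and only a window of 30 bases around a CCAAT box is given. The sequences are those of RefSeq on GRCh38.p14, read 5′ to 3′ on the gene's strand, and capitals mark matches to a CCAAT box (CCAAT), a GC box (GGGCGG) or the cell cycle homology region (CHR, TTTGAA), each on either strand. CDKN2D is shown from 250 to 81 bases before its start (chr19:10569060-10569229, minus strand), CDKN1A from 154 to 57 bases before (chr6:36678560-36678657, plus strand), CDKN3 from 250 to 159 bases before (chr14:54396757-54396848, plus strand), and CDKN1B from 65 to 36 bases before (chr12:12717303-12717332, plus strand).
CDKN2D: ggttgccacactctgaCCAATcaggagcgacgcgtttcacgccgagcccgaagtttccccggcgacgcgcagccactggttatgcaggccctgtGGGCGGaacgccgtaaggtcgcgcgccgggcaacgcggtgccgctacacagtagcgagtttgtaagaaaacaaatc
CDKN1A: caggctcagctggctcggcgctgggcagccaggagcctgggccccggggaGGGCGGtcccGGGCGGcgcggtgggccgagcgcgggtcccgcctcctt
CDKN3: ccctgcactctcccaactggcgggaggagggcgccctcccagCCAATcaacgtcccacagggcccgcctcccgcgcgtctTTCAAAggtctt
CDKN1B: ctcccgccgccgcaaCCAATggatctcctc

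RefSeq promoters matched 7 of the 8 genes, all but CDKN1C, some with several starts. Over the 250 bases before each start, a CHR was found in CDKN3 alone among these 7, 170 bases before the start, beside 2 CCAAT boxes. CDKN1B, CDKN2C and CDKN2D each held a CCAAT box and at least 1 GC box. None of the 7 held an E2F word (TTTCCCGC, TTTGGCGC, TTTCGCGC or TTTGCCGC). Of 35116 RefSeq promoters, 2.79% held an E2F word, 13.3% a CHR, 32.0% a CCAAT box and 42.6% a GC box in the same window. These matches describe letters in the window, and binding was not measured.

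The libraries held 28504091 to 38546037 reads assigned to genes. SF3B6 fell from 89.6 ± 11.1 to 22.9 ± 1.89 CPM (reads scaled by library size and TMM factor; SD, n = 3), which is 25.6% of the siNC level. The third siNC library stood apart from the other siNC libraries: 24579 genes had a read there, against 30930 and 32041 in siNC replicates 1 and 2 and 24516 to 25566 in the siSF3B6 libraries. Its share of mitochondrial reads was 9.07%, against 3.38% and 3.93% in the other siNC libraries and 10.6% to 11.8% with siSF3B6. Results are therefore also given without it, or with it as the lone control, where a member's call depends on it, and for the gene lists where a count moves by over 1.5 times. VIM, a mesenchymal marker, was at 3021 ± 217 CPM in siNC, and the estrogen receptor gene ESR1 had 10 reads in the siNC group and 4 in the siSF3B6 group. ESR1 does not stand for its list: 10 luminal and hormone receptor markers summed to 1816 to 2116 CPM per library. The 10 mesenchymal markers summed to 6445 to 7329 CPM. Markers of leukocytes, endothelium and fat cells summed to 11.9 to 16.6 CPM per library over 10 genes, with PECAM1 the highest at 9.18 ± 0.732 CPM in siNC. Of the 5 that were tested, PTPRC and CD68 rose and PECAM1 fell, calls that several fits with 1 library left out lost, as did the fit against siNC replicate 3 alone. Of 10 mesenchymal markers, SNAI2, ZEB1 and CAV1 rose, and of 7 tested luminal markers GATA3, EPCAM and CDH1 rose and TFF1 fell. Over all tested genes, 20.8% rose and 20.0% fell. With the libraries numbered 1 and 2, 9 mesenchymal markers were called higher. Against siNC replicate 3 alone, fewer mesenchymal and luminal markers were called, as over all genes. The part of the mitochondrial share and of these markers in the results was not tested.

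Of the 8 genes, 6 had enough reads to be tested: 2 rose, 3 fell and 1 was not called. In the same edgeR quasi-likelihood fit, 6889 of 16869 genes (40.8%) were called at a Benjamini-Hochberg adjusted p under 0.05, 20.8% higher and 20.0% lower, so being called is common in these data. The median log2 fold change of all tested genes was 0.00. With library size alone as the scale that median was -0.10, and 2459 genes were called higher and 4558 lower. The 5 called genes had groups that did not overlap, as did 52.1% of all tested genes. An exact two-sided permutation test of 3 libraries against 3 cannot go below 0.1, and each of these 5 reached that value. In bulk RNA, fewer cells in a cell cycle phase and less mRNA per cell cannot be told apart.

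**Figure D1:**
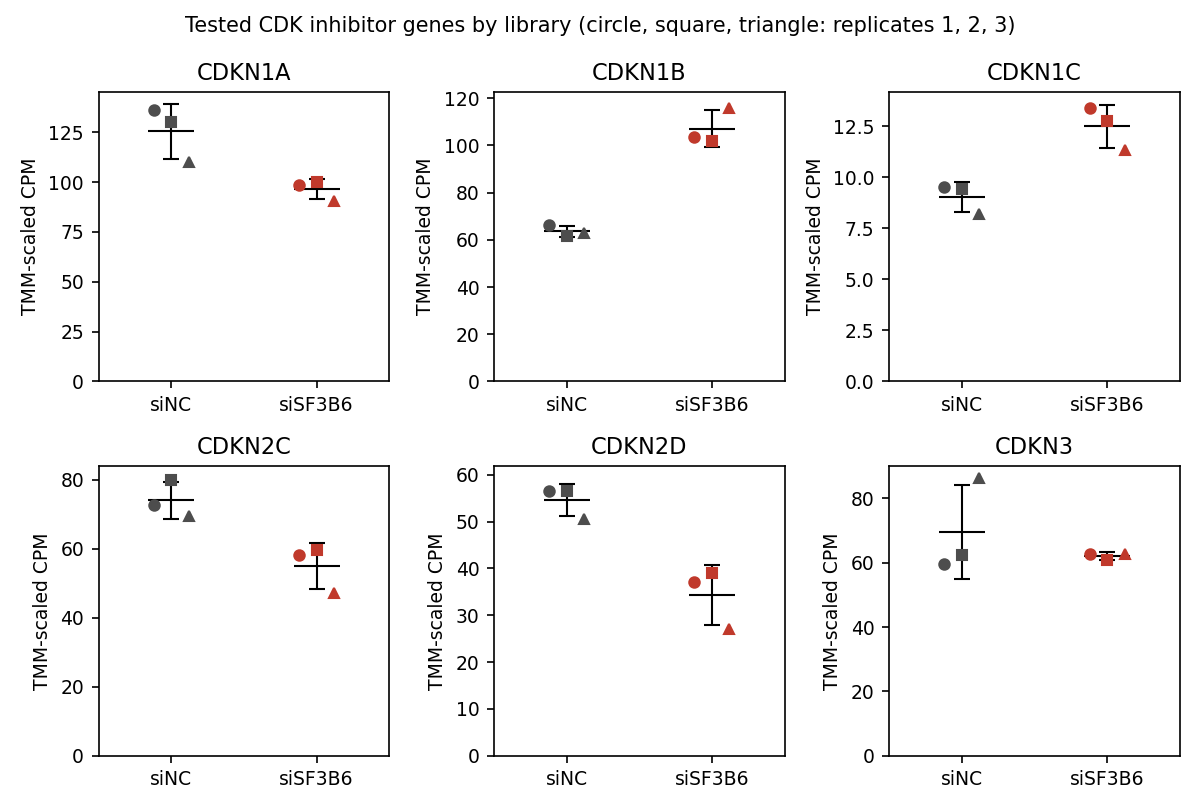
TMM-scaled CPM (vertical axes, from 0) of the 6 tested CDK inhibitor genes in each siNC and siSF3B6 library, with circles, squares and triangles for replicates 1, 2 and 3, and lines for the mean and SD of 3 libraries. The groups are apart in 5 panels, and in the CDKN3 panel the third siNC library lies above the other 5.

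The CIP/KIP genes moved in opposite directions. CDKN1B, whose product p27 binds and inhibits cyclin E-CDK2 in resting cells, rose most. The gene lies at chr12:12715058-12722371 on the plus strand (hg38, GENCODE 29, as for all gene positions here). Its levels were 66.3, 61.8 and 63.0 CPM in siNC replicates 1, 2 and 3, and 104, 102 and 116 CPM in siSF3B6 replicates 1, 2 and 3. Every siSF3B6 library lay well above every siNC library, and the mean was 168% of the siNC mean. The log2 fold change was 0.75 (SE 0.0814, edgeR adjusted p = 1.86e-05), and 5.3% of tested genes had a log2 fold change at least as high. It was 0.75 without the third siNC library and also against that library alone.

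CDKN1A, the gene of p21, went the other way. It lies at chr6:36676460-36687339 on the plus strand. It measured 136, 130 and 110 CPM in the siNC libraries and 98.5, 100.1 and 90.6 CPM in the siSF3B6 libraries. The third siNC library was the lowest control, yet still above each siSF3B6 library. The log2 fold change was -0.38 (SE 0.0909, edgeR adjusted p = 0.00454). Without the third siNC library it was -0.46; against that library alone it was -0.20 and no longer called (adjusted p = 0.299, the highest of 18 alternatives that start at 3.33e-13). With the GC and length offset it was also -0.20, and called.

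CDKN1C, the imprinted gene of p57, was far less abundant. Its levels were 9.55, 9.41 and 8.22 CPM in siNC, against 13.4, 12.8 and 11.4 CPM in siSF3B6. The lowest siSF3B6 library was above the highest siNC library. The log2 fold change was 0.47 (SE 0.111, edgeR adjusted p = 0.00437), and it reached 0.75 once GC content and transcript length were offset. By the longest annotated transcript of each gene, CDKN1C had the highest GC content of the 8 genes, 63.8%.

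Both INK4 genes that this line expresses fell. CDKN2D, which encodes p19, an inhibitor of CDK4 and CDK6 whose mRNA is known to vary over the cell cycle, measured 56.6, 56.6 and 50.6 CPM in siNC. In the siSF3B6 libraries it was at 37.1, 38.9 and 27.1 CPM. The gene lies at chr19:10566462-10569059 on the minus strand. The third siSF3B6 library was the lowest of the 6 and the groups did not overlap. The siSF3B6 mean was 62.9% of the siNC mean, with a log2 fold change of -0.67 (SE 0.119, edgeR adjusted p = 0.000657), and 7.2% of tested genes had one at least as low. Against the third siNC library alone it was -0.57, and with the GC and length offset -0.44, both still called.

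CDKN2C, the gene of p18, fell by less. It lies at chr1:50960745-50974633 on the plus strand. It was at 72.7, 80.0 and 69.5 CPM in siNC, against 58.2, 59.6 and 47.2 CPM in siSF3B6. All 3 siSF3B6 libraries lay below all 3 controls. The log2 fold change was -0.43 (SE 0.0986, edgeR adjusted p = 0.00357). Against the third siNC library alone it was -0.35 and lost the call (adjusted p = 0.132, the highest of 18 alternatives that start at 3.63e-09). With the GC and length offset it was -0.27, and called.

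CDKN3, at chr14:54396849-54420218 on the plus strand, did not pass the test. It measured 59.7, 62.3 and 86.2 CPM in siNC, against 62.8, 60.8 and 62.7 CPM in siSF3B6. The third siNC library alone was high, and the other 5 libraries lay within 59.7 to 62.8 CPM. The log2 fold change was -0.16 (SE 0.118, edgeR adjusted p = 0.298). Without the third siNC library it was 0.03 (adjusted p = 0.79), and against that library alone it was -0.49 and called (adjusted p = 0.0179). Adjusted p over the 18 alternatives ran from 0.0179 to 0.79, and the offset for GC content and length also gave a call (-0.25, adjusted p = 0.0372).

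**Figure D2:**
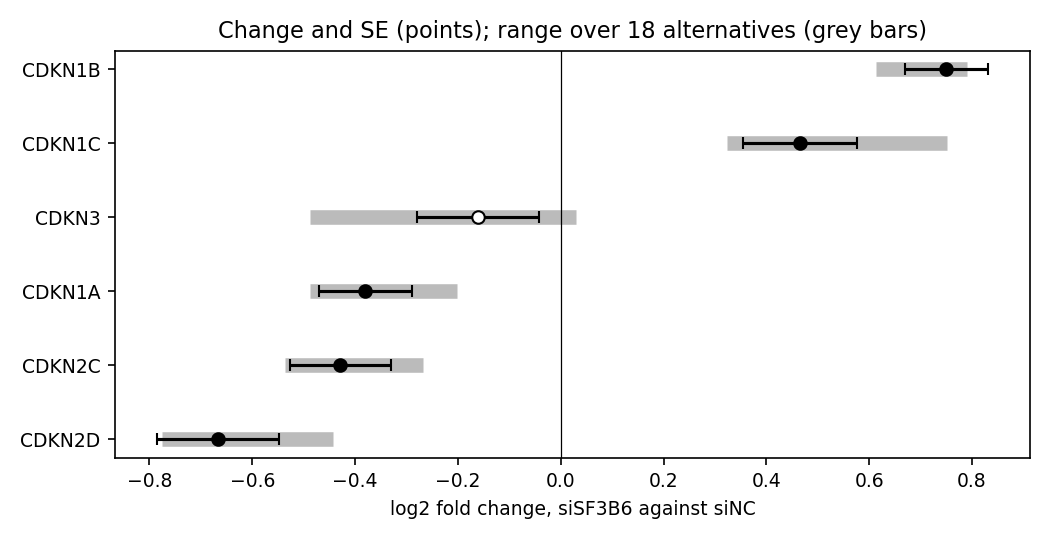
Log2 fold change of siSF3B6 against siNC (horizontal axis) for the 6 tested genes, with points and black bars for the edgeR estimate and its SE, filled where called, and grey bars for the range over 18 alternative analyses. CDKN1B and CDKN1C lie above 0 and CDKN1A, CDKN2C and CDKN2D below 0 over their whole ranges, while the range of CDKN3 runs from -0.49 to 0.03.

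CDKN2A and CDKN2B, neighbours on chromosome 9p21, at 21967753-21995301 and 22002903-22009363 on the minus strand, were near zero in both groups. CDKN2A, whose transcripts encode p16 and the MDM2 inhibitor ARF, had 2, 3 and 3 reads in the siNC libraries and 0, 7 and 3 in the siSF3B6 libraries. CDKN2B had 6, 0 and 0 reads in siNC and 0, 2 and 1 in siSF3B6. Neither passed the filter on low counts, so neither was tested. A count of 0 in a single library allows a level of up to 0.0812 to 0.102 CPM (3 counts, counting error only). The coding regions of CDKN2A and CDKN2B are similar, and few reads could be split between them by the counting.

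The low reads covered more than this gene pair. Within 3 Mb on each side, GENCODE 29 annotates 35 protein-coding genes, of which 23 were in the count table and 8 had more than 25 reads over the 6 libraries. Those 8 (RRAGA, HAUS6, PLIN2, DENND4C, RPS6, ACER2, MLLT3 and FOCAD) all lay at lower coordinates than CDKN2A. From HACD4, which starts at 20999515, through IZUMO3, which ends at 24545946, each coding gene in the table had at most 18 reads in all. Low reads were not confined to that stretch. At lower coordinates than FOCAD, SLC24A2 had 17 reads, SAXO1 had 12 and ACER2 had 31. Several genes of the stretch are interferon genes, and whether its genes would be expressed in cells that keep the region was not tested. MTAP, a methionine salvage enzyme gene beside CDKN2A that most cells express, had 3, 3 and 0 reads in siNC and 1, 2 and 1 in siSF3B6. The antisense RNA gene CDKN2B-AS1 had 6, 7 and 0 reads in siNC and none in siSF3B6. FOCAD, which encodes a focal adhesion protein and lies next to HACD4, was at 1.52 CPM over all libraries (edgeR log2 fold change -0.27, adjusted p = 0.292). As background, MDA-MB-231 is known to have a deletion that includes CDKN2A; copy number was not measured here, and the 3 Mb span was chosen after the values were seen.

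**Figure D3:**
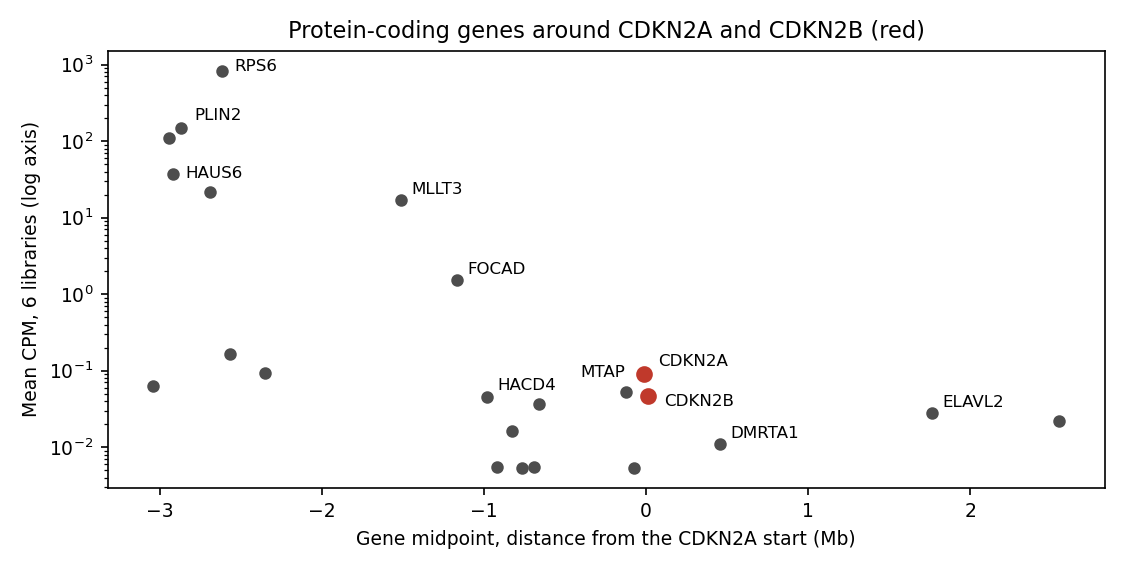
Mean CPM over 6 libraries (vertical log axis) of the protein-coding genes of the count table around CDKN2A and CDKN2B (red), against the distance of each gene's midpoint from the CDKN2A start in Mb. Genes from HACD4 rightward lie below 0.1 CPM, as do SAXO1 and SLC24A2 further left, while FOCAD, at 1.52 CPM, is the nearest gene with more than 25 reads.

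Per kb of exon, the genes changed order. On this scale (CPM per kb of merged GENCODE 29 exon) the siNC means were 41.2 ± 4.55 for CDKN1A, 37.8 ± 7.96 for CDKN3 and 36.3 ± 2.33 for CDKN2D (SD, n = 3), neighbours that did not differ beyond their spread. CDKN1B at 22.7 ± 0.838 and CDKN2C at 22.3 ± 1.62 formed the next pair, also within their spread, and CDKN1C was at 3.66 ± 0.296. In siSF3B6, CDKN1B ranked first in all 3 libraries at 38.1 ± 2.77, followed by CDKN3 at 33.8 ± 0.605 and CDKN1A at 31.6 ± 1.66. CDKN2D was then at 22.9 ± 4.24, CDKN2C at 16.6 ± 2.05 and CDKN1C at 5.05 ± 0.421. CDKN2A and CDKN2B stayed at or below 0.0474 CPM per kb in every library.

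The place of CDKN1B in this order depends on the length used. In the deposited FPKM (reads scaled by depth and by the length of the gene model) it ranked below CDKN1A, CDKN2D, CDKN3 and CDKN2C in each of the 6 libraries, at 5.89 ± 0.24 in siNC and 9.56 ± 0.683 in siSF3B6. Those FPKM values imply a length of 10.9 kb for CDKN1B, against 2.81 kb of merged exon in GENCODE 29, a ratio of 3.86. For the other 5 tested members the ratio was 1.07 to 1.17. Its median over 5458 genes of at least 5 FPKM was 1.17, and 1.56% of those genes exceeded 2 times that median. As a divisor, the length is the same in both groups and leaves the fold change of CDKN1B as it is. The implied length exceeds the whole GENCODE 29 span of the gene, 7314 bases. Which reads the gene model behind the counts takes in, and whether the fold change depends on it, was not tested.

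**Figure D4:**
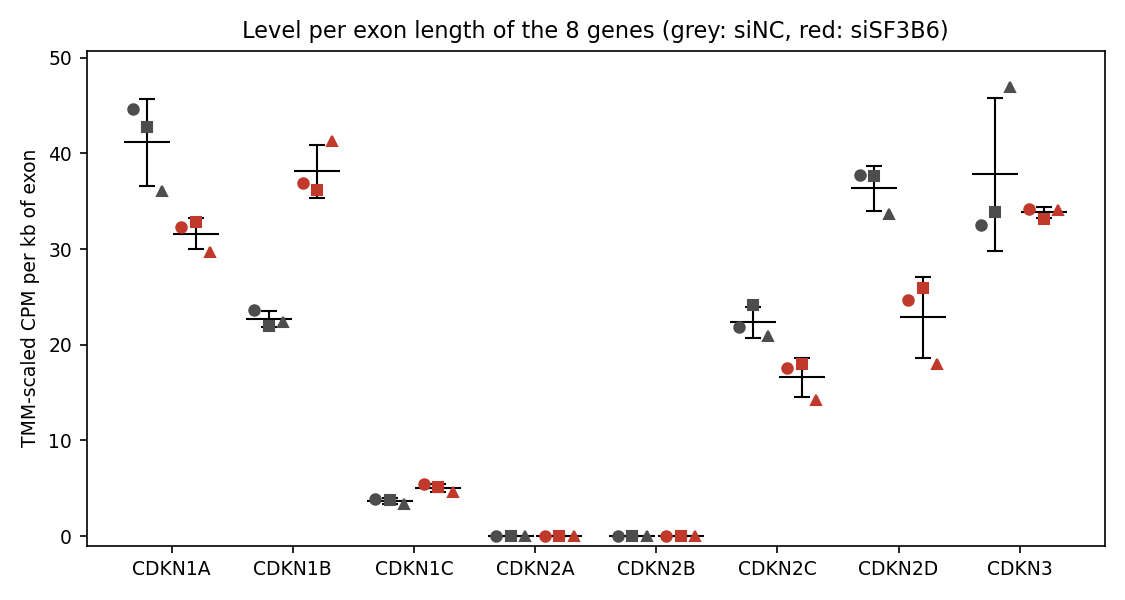
TMM-scaled CPM per kb of merged GENCODE 29 exon (vertical axis) of the 8 genes, with points for libraries (circle, square and triangle for replicates 1, 2 and 3; grey for siNC, red for siSF3B6) and lines for mean and SD. CDKN1B goes from 22.7 to 38.1 while CDKN1A goes from 41.2 to 31.6, and CDKN2A and CDKN2B lie at the floor.

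Set against each other within a library, the members shifted in balance. The ratio of CDKN1B to CDKN1A (CPM per kb) was 0.528, 0.514 and 0.622 in siNC and 1.14, 1.1 and 1.39 in siSF3B6, higher in every siSF3B6 library than in every control. In the deposited FPKM this ratio was 0.158, 0.153 and 0.186 in siNC, against 0.341, 0.329 and 0.415 in siSF3B6. The rise of the ratio was thus present on both scales, while which of the pair is more abundant in siSF3B6 turns with the length given to CDKN1B. The CIP/KIP sum was 67.5 ± 5.27 CPM per kb in siNC and 74.8 ± 0.731 in siSF3B6, but 44.8 ± 3.97 and 40.3 ± 1.08 in FPKM, where the groups overlap, so its direction is not settled. The INK4 sum was 58.7 ± 3.68 CPM per kb in siNC and 39.5 ± 6.29 in siSF3B6, and 52.1 ± 2.73 and 33.9 ± 5.41 in FPKM. Summed over all 8 genes, the level was 164.0 ± 0.536 and 148.1 ± 5.27 CPM per kb. These sums are descriptions of members already tested singly.

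Of the 4 kinases that these proteins act on, CDK2 and CDK4 fell, and CDK6 and CDK1 did not pass the test. CDK2, the kinase of S-phase entry, fell from 91.6 ± 5.93 to 65.6 ± 0.867 CPM (edgeR adjusted p = 0.000353). The CIP/KIP sum relative to CDK2 was 3.15, 3.06 and 2.44 in siNC and 4.37, 4.4 and 4.55 in siSF3B6, with no overlap. In FPKM it was 2.24 ± 0.338 and 2.89 ± 0.0444, also with no overlap. CDK4, the main D-cyclin partner, fell from 239 ± 28.9 to 163 ± 14.7 CPM (edgeR adjusted p = 0.000708), and CDK6 was 42.3 ± 0.798 and 48.9 ± 4.71 CPM (adjusted p = 0.0744). The INK4 sum relative to CDK4 plus CDK6 was 0.717, 0.726 and 0.798 in siNC and 0.731, 0.756 and 0.639 in siSF3B6, so the groups overlapped. CDK1, the mitotic kinase, was 170.0 ± 10.9 CPM in siNC and 151.6 ± 10.1 in siSF3B6 (edgeR adjusted p = 0.124). CDKN3 relative to CDK1 overlapped as well, at 0.743 to 1.03 in siNC and 0.821 to 0.924 in siSF3B6.

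**Figure D5:**
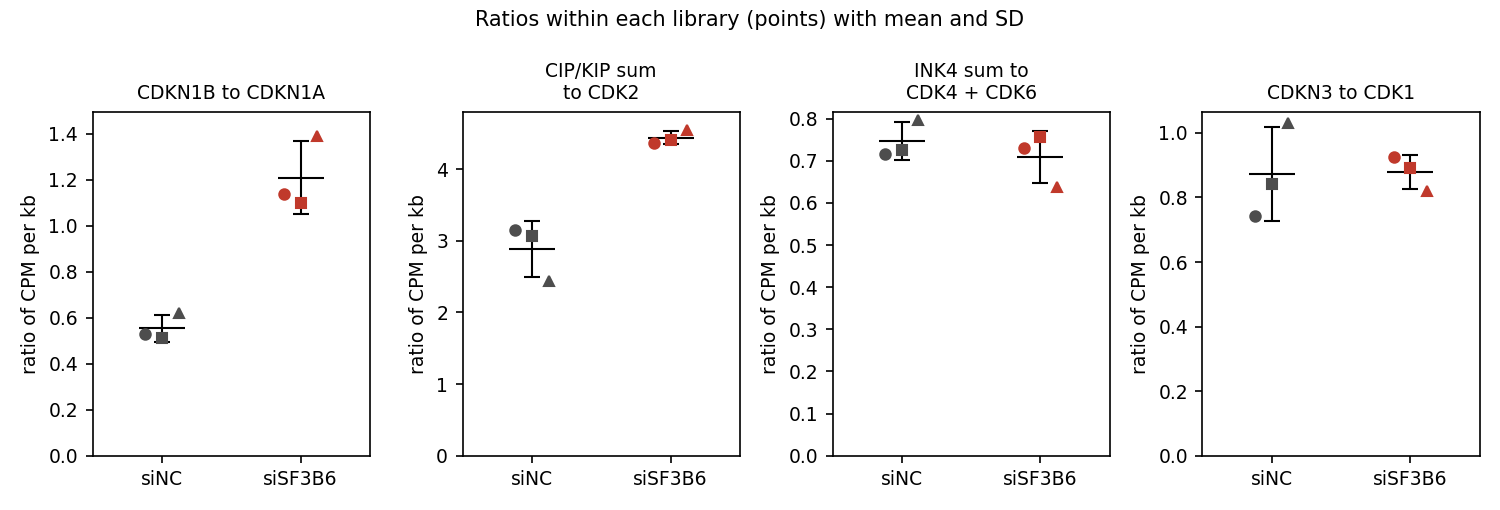
Ratios of CPM per kb within each library (vertical axes, from 0), with points for libraries and lines for mean and SD of 3. The CDKN1B to CDKN1A ratio and the CIP/KIP to CDK2 ratio are apart between siNC and siSF3B6, and the INK4 to CDK4 plus CDK6 ratio and the CDKN3 to CDK1 ratio overlap.

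Among the CDKs and their activating cyclins, 3 of 17 tested genes rose and 5 fell, against 20.8% and 20.0% of all genes. Their median log2 fold change was -0.17, against 0.00 for all genes. CCND3, a D-type cyclin opposed by INK4 proteins, fell from 368 ± 7.49 to 198 ± 23.1 CPM, and CCND1 rose from 677 ± 45.7 to 848 ± 11.1 CPM. CCNE1, a cyclin of CDK2, changed by -0.78 and the testis-type cyclin CCNA1 by -1.44 on the log2 scale. CCNA2, which also pairs with CDK2, rose (0.37, edgeR adjusted p = 0.015). CCNE2 was not called (-0.26, edgeR adjusted p = 0.0501). The count that rose was 1 without siNC replicate 1, without siNC replicate 2 or without siSF3B6 replicate 3. It was 5 with the libraries numbered 1 and 2 and with replicate number as a block. The count that fell was 10 with library size only, with the GC and length offset, and with the libraries numbered 1 and 2. With the replicate block it was 8. Against siNC replicate 3 alone, fewer rose and slightly more fell, while fewer genes were called over all genes.

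Downstream of the inhibitors, 4 of 13 genes of the RB and E2F families rose and 4 fell, against 20.8% and 20.0% of all genes. E2F1 and E2F2, activators of S-phase genes that RB restrains, had log2 fold changes of -1.34 and -1.33. E2F3, another activator, went the other way (0.32, edgeR adjusted p = 0.0103). E2F5, a repressor type E2F, changed by 0.53, E2F6 by 0.45, E2F7 by 0.45 and E2F8 by -0.52, all called. E2F4 was not called (-0.20, edgeR adjusted p = 0.102). The median of these 13 was 0.02. Both counts were smaller against siNC replicate 3 alone, as were those over all genes. Of 5 CDC25 and WEE family genes, none rose and 2 fell: PKMYT1, a kinase that inhibits CDK1, by -0.999 and CDC25B, a phosphatase that activates it, by -0.49. Fewer of the 5 fell against siNC replicate 3 alone, a fit with fewer calls over all genes.

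Among 19 genes for the degradation of CDK inhibitors, 2 rose and 6 fell, against 20.8% and 20.0% of all genes. Their median was -0.06. SKP2, the receptor for p27, was 24.4 ± 2.66 CPM in siNC and 23.5 ± 0.916 in siSF3B6 (edgeR adjusted p = 0.677), while CKS1B, its cofactor, fell from 176 ± 12.3 to 146 ± 6.25 CPM. UBAC1, of a cytoplasmic ligase complex for p27, changed by -0.42, CDC20 by -0.47, SKP1 by 0.34 and FBXW7, the receptor for cyclin E, by 0.61. The fallen count was 3 without siNC replicate 1, and the risen count was 1 without siNC replicate 1 or 2. Fewer rose and fewer fell against siNC replicate 3 alone, as over all genes.

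Of 33 transcription regulators of these genes, 13 rose and 7 fell, against 20.8% and 20.0% of all genes. Their median was 0.15. EGR1, an immediate early factor, changed by 1.73. EZH2, the Polycomb methyltransferase known to silence INK4 loci, changed by -0.72 and MYBL2, a driver of mitotic genes, by -1.04. The other Polycomb genes of the list were mixed: BMI1 (0.53) and RNF2 (0.30) rose and EED (-0.33) fell. CBX7, CBX8 and SUZ12 were not called. Both counts were smaller against siNC replicate 3 alone, where fewer genes were called over all genes too.

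Of 35 G2/M genes of the CHR and FOXM1 type, a class known to hold CDKN3, 2 rose and 14 fell. Over all tested genes, 20.8% rose and 20.0% fell. The median of the 35 was -0.18. CDKN3, at -0.16, lay near that median without passing the test. Its log2 fold change was 0.03 without siNC replicate 3 and -0.49 against that library alone, so its place near the median rests on that library. UBE2S changed by -0.88, the mitotic kinase gene AURKB by -0.85, CDCA3 by -0.62 and CDCA8 by -0.49. The risen count was 5 without siNC replicate 3. It was 1 when either siNC replicate 1 or siSF3B6 replicate 3 was left out, and 0 when siNC replicate 2 was. The fallen count was 25 with the GC and length offset. With siNC replicate 3 as the single control both counts were smaller, as over all genes.

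CDKN1C lies in the imprinted cluster of chromosome 11p15, at 2883213-2885773 on the minus strand (hg38, GENCODE 29). Of 8 tested neighbours none rose and 3 fell, against 20.8% and 20.0% of all genes. With the GC and length offset, 1 rose. PHLDA2, which is imprinted with CDKN1C, fell from 245 ± 2.44 to 186 ± 35.7 CPM, NAP1L4 from 167.5 ± 10.9 to 141.5 ± 5.71 and CARS1 from 121 ± 1.85 to 103 ± 2.67. KCNQ1OT1, the long RNA known to silence this cluster on the paternal allele, was 4.2 ± 0.265 CPM in siNC and 4.19 ± 0.876 in siSF3B6. CD81, SLC22A18, IGF2 and SLC22A18AS were not called, and KCNQ1, TSPAN32 and H19 had too few reads to be tested. The fallen count was 1 without siNC replicate 1 or 2 or without siSF3B6 replicate 1 or 2. It was also smaller when the third siNC library served as the only control, as were the counts over all genes.

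Genes with the profile most like each member over the 6 libraries were found among 10750 coding genes of at least 5 CPM, as a description. C3orf52 and TEX10 were among the 3 genes closest to CDKN1B, and 1242 genes had a Pearson r of at least 0.95 with it. CDKN2D ran with ECHS1, RABEP2 and QTRT1 (1101 such genes), CDKN2C with COL9A2, FAM83A and TFF1 (866), CDKN1A with FBL, STUB1 and VPS37B (842) and CDKN1C with SPINT1 and DNAJC30 among its closest (234). The difference between the groups is in each of these correlations. CDKN3 had 21 such genes, led by PPIL1 (r = 0.987), BOD1 (0.985) and R3HDM1 (0.981). These correlations rest largely on siNC replicate 3, the only library where CDKN3 was high (86.2 CPM).

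None of the 8 genes carried a match to bases 2 to 8 of the guide strand of either duplex in its longest annotated 3' UTR. Such a match was present in 18.1% of 13393 tested coding genes for the SF3B6 duplex and in 3.55% for the control duplex. Annotated antisense overlap was small. DINOL covers 4.8% of the exonic bases of CDKN1A on the other strand and had at most 2 reads in a library, CDKN2B-AS1 covers 7.9% of those of CDKN2A, and the other 6 genes had no exonic overlap.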

How the data were processed

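Poly(A) RNA of 3 siSF3B6 and 3 siNC libraries of MDA-MB-231 was sequenced with a directional kit, per the labels' protocols. The series also names immunoprecipitation libraries, which were not analysed here. The authors deposited gene-level read counts and, in a second table, FPKM. The submitters' processing notes name HISAT2, DESeq2 and hg38. Which program counted reads, and whether by strand, is not given in the sources used here, nor is the release of the annotation. Counts at gene level do not show isoforms.

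The deposited counts were tested with edgeR 4.0.16 in R 4.3.3 (filterByExpr, TMM factors, quasi-likelihood fit of 6 libraries with no further covariate, Benjamini-Hochberg over 16869 genes, threshold 0.05). Log2 fold changes are siSF3B6 against siNC, and SE is the fold change divided by the root of F. Levels are TMM-scaled CPM. The deposited FPKM was used with limma 3.58.1 in alternatives, with pseudocounts of 1 and 0.1 and a mean FPKM of at least 0.5 or no filter. DESeq2 1.42.0 on the counts was another of the 18 alternatives. Exonic length, positions and 3' UTRs came from GENCODE 29. The procedure was tested on simulated data.

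All 8 members are named. From each gene list, up to 4 called genes were named, those largest in absolute log2 fold change among genes averaging 5 CPM or more, and locus lists were named by level. Some genes that this rule names, and 1 list, are not reported here. CDK2, CDK6, CCND1, CDK1, SKP2 and CKS1B were added after their values were seen, as were the genes of the 9p21 span. The same holds for CCNA2, CCNE2, E2F3, E2F4, E2F6, E2F7, BMI1, RNF2, EED, CBX7, CBX8 and SUZ12. The members and lists were chosen with earlier results of these data known. CDH1 (E-cadherin) had been put in the degradation list by mistake and was removed after values were seen.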

Additional observations from a re-analysis of the deposited data

How the results depend on the processing

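CDKN1B, CDKN1C and CDKN2D kept their direction and their call in all 18 alternatives, with log2 fold changes of 0.61 to 0.79, 0.32 to 0.75 and -0.78 to -0.44. CDKN1A (-0.49 to -0.20) and CDKN2C (-0.54 to -0.27) lost their call in 1 of 18, with siNC replicate 3 as the lone control, a fit that takes the spread of the siSF3B6 libraries for that single control too. CDKN3 changed sign with the libraries numbered 1 and 2 (0.021) and among the fits that leave out 1 library, which ran from -0.261 to 0.029 (the highest without siNC replicate 3). Over all genes, 6889 were called; the count was 2471 with siNC replicate 3 as the lone control and 3817 with unfiltered log2(FPKM + 1), the latter with 1561 higher and 2256 lower, and the cause was not tested. Fits that leave out 1 library called 5044 to 7571. Same-numbered libraries of the 2 groups had correlated deviations from their group means of 0.04, 0.106 and 0.136, so the numbers were not taken to pair them, although each library correlated best with its own number. With the replicate block 8052 genes were called, 4047 higher and 4005 lower, and no member's call changed: CDKN1B 0.75, CDKN1C 0.46, CDKN1A -0.38, CDKN2C -0.43, CDKN2D -0.68 and CDKN3 -0.14. Depth limits CDKN2A and CDKN2B, where 3 counts equal 0.0812 to 0.102 CPM and no difference could be detected.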

Other observations

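RNA levels were also read for CDKN2AIP, BCCIP and CIZ1, named for the binding of their products to members, and for CDKN2AIPNL. This set was chosen after the values were seen. CDKN2AIP, whose product binds ARF, rose from 16.0 ± 1.63 to 25.4 ± 2.26 CPM (SD, n = 3; edgeR log2 fold change 0.67, adjusted p = 0.000235) although CDKN2A itself was near zero. BCCIP, which encodes a partner of p21 and BRCA2, fell from 99.5 ± 4.12 to 71.1 ± 3.4 CPM (edgeR log2 fold change -0.49, adjusted p = 0.000316). CIZ1, whose product binds p21, was 110.4 ± 4.86 CPM in siNC and 110.9 ± 4.6 in siSF3B6 (edgeR adjusted p = 0.958). CDKN2AIPNL was 40.6 ± 6.28 CPM in siNC and 35.0 ± 2.9 in siSF3B6 (edgeR adjusted p = 0.131).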
